A study of Mus musculus with 12 samples.

Results

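The WT-only PR regions are stretches of the mouse genome where the progesterone receptor (PR) was called as a peak in both libraries of wild-type (WT) mammary glands and in neither library of glands with the Y541S form of estrogen receptor alpha (ERα). The members were chosen by the presence or absence of peaks in the 4 PR lists. They were found by merging peaks of the 4 PR libraries that shared at least 1 bp, keeping the autosomes, and taking the merged regions with that pattern of presence and absence. The rule gave 1060 regions of 188748, so the share of all PR regions with this pattern was 0.562%. The mirror pattern, with a peak in both Y541S and neither WT PR library (Y541S-only regions), was seen in 13013 regions, 6.89% of all. A further 37560 regions had a peak in all 4 PR libraries (constant regions) and 3601 had a peak in both WT and exactly 1 Y541S PR library (intermediate regions). Each PR library sets a condition of the rule, so leaving 1 out loosens the rule. The count was 4127 without Y541S PR replicate 1, 1614 without Y541S PR replicate 2, 25293 without WT PR replicate 1 and 27517 without WT PR replicate 2.

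The study mapped ERα and PR by chromatin immunoprecipitation and sequencing (ChIP-seq) in mice with Y541S, a serine in place of a tyrosine in ERα, and in WT mice. Mice of both genotypes were 8 weeks old and received implants of estradiol (E2) and progesterone (P4), and the glands were taken 4 days later, so no group without hormones enters any comparison. Each genotype had 2 ERα and 2 PR libraries, described as biological replicates, and the number of animals behind a library was not given. The 4 libraries of another form, D542G, were not analysed here. The labels do not say whether the allele was carried in 1 or both copies, or in which cells. The tissue is given as whole gland, which holds luminal, basal, fat, stromal, vascular and immune cells, and peak positions cannot show in which of them a receptor was bound or check the genotype. In such bulk chromatin, fewer cells with a bound site and less binding per cell cannot be told apart.

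PR and ERα are nuclear receptors that bind DNA in response to progesterone and estradiol. In the mammary gland both are found in a subset of luminal cells, the hormone-sensing cells, where ERα is needed for transcription of the PR gene and PR drives side branching through paracrine signals such as RANKL. PR recognises an inverted repeat of TGTTCT-like sites that is shared with the glucocorticoid and androgen receptors, whereas ERα recognises an inverted repeat of GGTCA. Exchange of the corresponding tyrosine in human ERα is known from endocrine-resistant breast cancer and lets the receptor adopt its active shape without hormone.

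Sequence is shown for 5 members that lay on the annotated start of a coding gene, because there the region could be placed against the gene to the base. They were chosen, after their values were seen, among 16 members that overlapped a promoter window of a coding gene, and in each the stretch shared by both WT PR peaks lay at least partly within the printed bases. The genes were Esr2, which encodes the second estrogen receptor, ERβ; Akt2, a kinase of insulin signalling; Rab34, a small GTPase involved in cilium formation; Ccdc8, a component of the 3M complex; and Rasl2-9, a Ran-like GTPase. Each line gives the 250 bases before the start site, 5′ to 3′ on the strand of the gene, from RefSeq for GRCm38.p6 (mm10), and capitals mark bases inside the peaks of both WT PR libraries.
Esr2, chr12:76177260-76177509, minus strand: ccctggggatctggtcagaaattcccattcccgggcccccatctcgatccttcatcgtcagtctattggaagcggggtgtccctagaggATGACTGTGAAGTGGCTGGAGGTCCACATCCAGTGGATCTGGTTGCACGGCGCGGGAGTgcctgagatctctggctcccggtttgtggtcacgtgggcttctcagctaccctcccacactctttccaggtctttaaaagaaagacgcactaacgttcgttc
Akt2, chr7:27605547-27605796, plus strand: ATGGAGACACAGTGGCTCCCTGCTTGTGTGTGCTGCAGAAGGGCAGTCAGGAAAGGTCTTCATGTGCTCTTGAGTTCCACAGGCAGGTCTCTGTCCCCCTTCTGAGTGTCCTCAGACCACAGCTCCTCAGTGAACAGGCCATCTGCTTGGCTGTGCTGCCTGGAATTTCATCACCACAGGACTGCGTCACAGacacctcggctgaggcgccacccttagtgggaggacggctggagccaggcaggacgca
Rab34, chr11:78188177-78188426, plus strand: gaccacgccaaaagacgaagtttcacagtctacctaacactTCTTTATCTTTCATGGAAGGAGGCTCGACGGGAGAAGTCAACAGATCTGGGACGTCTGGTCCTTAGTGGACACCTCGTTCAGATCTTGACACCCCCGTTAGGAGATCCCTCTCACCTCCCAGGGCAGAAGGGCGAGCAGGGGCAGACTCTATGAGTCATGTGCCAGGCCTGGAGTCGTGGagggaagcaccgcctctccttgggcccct
Ccdc8, chr7:16993652-16993901, plus strand: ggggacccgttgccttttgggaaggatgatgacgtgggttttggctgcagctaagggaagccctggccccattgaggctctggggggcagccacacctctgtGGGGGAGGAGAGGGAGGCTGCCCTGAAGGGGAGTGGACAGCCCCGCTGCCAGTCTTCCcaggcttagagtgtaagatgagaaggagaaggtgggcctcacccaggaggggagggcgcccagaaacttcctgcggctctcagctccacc
Rasl2-9, chr7:5125951-5126200, minus strand: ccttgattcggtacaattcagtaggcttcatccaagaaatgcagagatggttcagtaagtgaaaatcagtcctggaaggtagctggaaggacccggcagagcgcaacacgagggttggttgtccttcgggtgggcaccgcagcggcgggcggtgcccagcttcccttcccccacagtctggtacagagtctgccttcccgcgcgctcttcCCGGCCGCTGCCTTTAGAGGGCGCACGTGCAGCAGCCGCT

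The stretch inside both WT peaks ran from −161 to −103 at Esr2, counted from the start site, and from −209 to −30 at Rab34. At Ccdc8 it ran from −148 to −91. At Akt2, where the start is one inside the annotated gene, it reached from −357, beyond the printed bases, to −59, and at Rasl2-9 from −40 to 117, past the start site. Exact matches were sought on both strands to AGAACA and TGTTCT separated by 3 bases (the full PR motif), TGTTCT alone (which each full PR motif also contains), GGTCA and TGACC separated by 3 bases (the ERα motif), TGTTTAC (forkhead factors) and TGANTCA (AP-1). Among the printed bases the only match was TGAGTCA in Rab34, with its first base at −58. With 1 promoter window per gene, of 250 bases before and 50 bases from the start site, TGANTCA was present in 7.99% of 25748 windows and in 2 of the 25 windows touched by a member. The shares of all windows were 19.0% for TGTTCT, which 1 of the 25 held, and 3.6% for TGTTTAC, 0.0699% for the ERα motif and 0.00388% for the full PR motif, which none of the 25 held. A match describes these letters in this window and nothing more.

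The WT PR peaks at the members were weak beside those at constant regions. This is a description, since the presence of peaks in these lists chose the regions. The authors' fold enrichment and −log10 p were given for each peak within its own list, without scaling between libraries, and the lists end at a −log10 p of 2.00. At the members the median −log10 p was 4.02 (range 2.08 to 16.6) in WT PR replicate 1 and 4.28 (2.26 to 23.6) in replicate 2. At constant regions these medians were 8.02 and 10.5. Median folds at the members were 2.99 and 3.599 in WT replicates 1 and 2, against 4.13 and 5.71 at constant regions. Counted from the strongest peak at 0% to the weakest at 100%, the median member stood at 66.9% and 69.7% of the WT lists, intermediate regions at 51.7% and 52.1% and constant regions at 24.8% and 22.4%.

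A −log10 p of at least 5 in both WT lists was reached by 114 members (10.8%, 95% Wilson interval 9.03 to 12.8%), against 72.8% of constant regions. A single member reached 10 in both, and 4 lay in the top 25% of both lists. Intervals on shares of regions cover counting error only. As merged regions, members had a median width of 347 bp, against 449 bp for intermediate and 659 bp for constant regions. These are not peak widths, since members merge peaks of the WT PR libraries alone and constant regions those of both genotypes. The median peak width over the whole list was 260 bp in WT PR replicate 1 and 312 bp in WT PR replicate 2. The summits of the 2 WT peaks of a member lay a median of 88 bp apart, and within 100 bp in 580 members (54.7%).

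**Figure D1:**
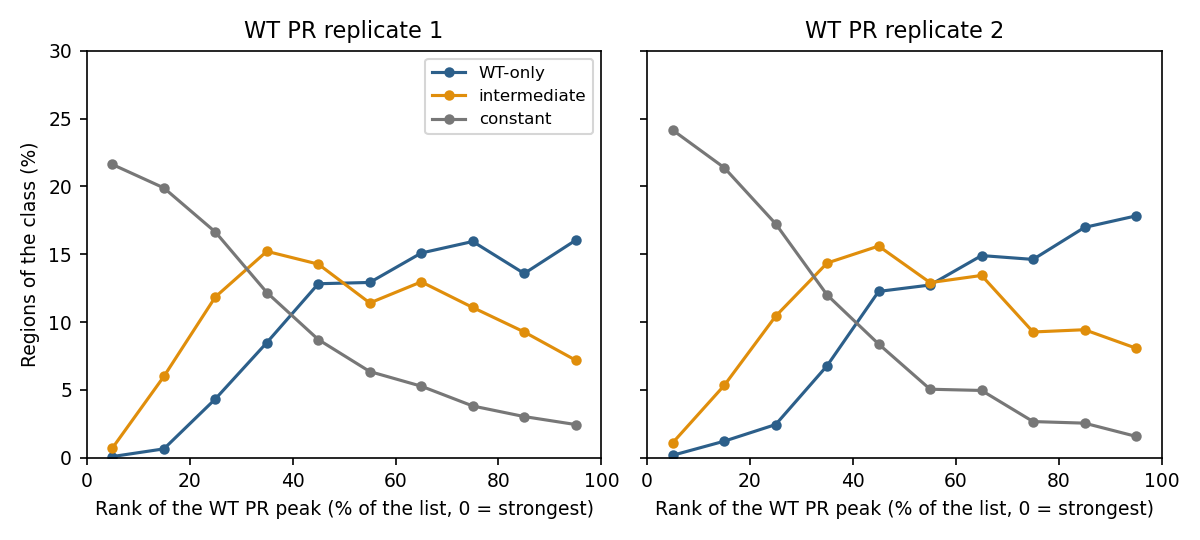
Share of WT-only (blue), intermediate (orange) and constant (grey) PR regions in steps of 10% of the WT PR peak list, for WT PR replicate 1 (left) and 2 (right); the x axis is the rank of the peak in percent of its list with the strongest at 0, and points are percent of the class. The strongest 10% of WT replicate 1 held 0.0943% of WT-only and 21.6% of constant regions, and the weakest 10% held 16.04% and 2.45%.

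Y541S PR peaks lay at a wide range of distances from the members. The gap was measured for the members alone, so the shares given here have no background. The gap from a member to the closest Y541S PR peak had a median of 1820 bp and ranged from 4 to 297059 bp. It was at most 100 bp for 66 members (6.23%), at most 500 bp for 259 (24.4%) and at most 10 kb for 951 (89.7%). The Y541S PR lists were the longer ones, with 113695 and 101382 peaks in Y541S replicates 1 and 2, against 82982 and 93491 in WT, and PR signal under the calling threshold can be present where no peak was listed. The part of list length in the membership was not tested.

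**Figure D2:**
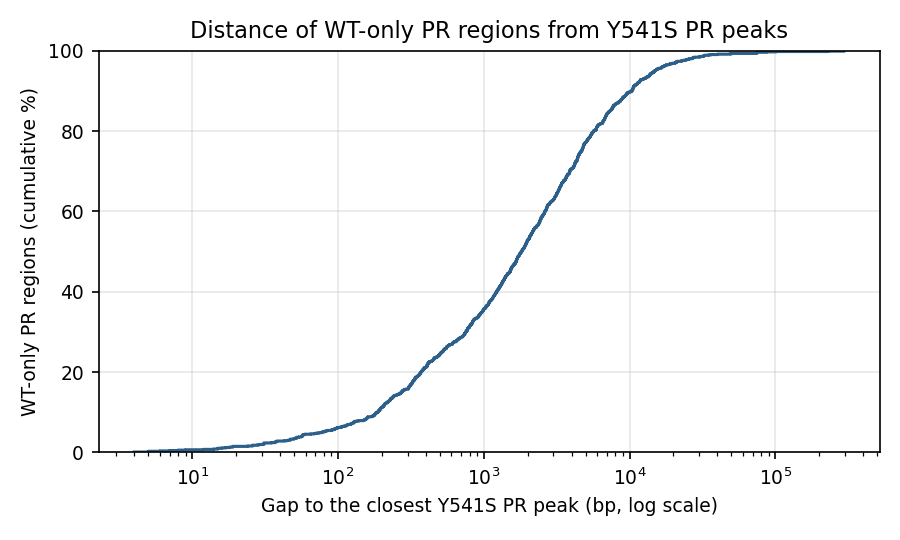
Cumulative percent of the 1060 WT-only PR regions (y axis) by the gap in bp to the closest Y541S PR peak (x axis, log scale). The curve passes 6.23% at 100 bp, 24.4% at 500 bp and 89.7% at 10 kb.

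At the edge of the rule, the members with the weakest WT peak lay closest to Rab40c, Lyplal1 and Ccdc43. Their −log10 p values were 2.08 and 2.79 in WT replicates 1 and 2 near Rab40c, 2.20 and 3.40 near Lyplal1 and 2.20 and 5.22 near Ccdc43. The 3 regions kept out by the weakest single Y541S peak lay closest to Egfl7, Bicral and Slc25a33. Near Egfl7 a Y541S peak of 2.23 in replicate 1 stood against WT peaks of 5.17 and 3.58, near Bicral a Y541S peak of 2.43 in replicate 1 against WT peaks of 2.57 and 4.38, and near Slc25a33 a Y541S peak of 2.44 in replicate 2 against WT peaks of 4.94 and 4.60. Of the 3601 intermediate regions, 3059 (84.9%) had their only Y541S peak in replicate 1, with a median −log10 p of 10.5, and the others in replicate 2, with a median of 5.45.

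The best ranked members in both WT lists were a mixed set of genes by position. The one within Luzp1, an actin- and cilium-associated protein, on chromosome 4 at 136524291 to 136524691, was the single member with a −log10 p above 10 in both WT libraries (10.2 and 11.1, folds 4.87 and 6.86). Within Bhlhe40, a repressor of the helix-loop-helix family (chromosome 6, 108665392 to 108665929), the folds were 3.83 and 3.74 in WT replicates 1 and 2. Within Tpd52l1, a member of the D52 family of proteins (chromosome 10, 31359618 to 31359934), they were 7.07 and 5.19. Neither of these members had an ERα peak in any of the 4 ERα libraries.

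The member closest to Irs2, an adaptor of the insulin and IGF1 receptors, lay 106 kb away (chromosome 8, 10878310 to 10878735), with folds of 4.01 and 4.68 in WT replicates 1 and 2. A Y541S PR peak stood 95 bp from its edge. Those within Nedd9, a scaffold at focal adhesions (folds 3.75 and 5.03), and Ptpra, a receptor tyrosine phosphatase (3.72 and 4.59), were also among the 20 best ranked. The others of the 20 lay at Mical3, Tmem252, Gnat3, Mtpap, Pigt, Mpst, Sfi1, LOC108167340, Ano10, Sema4b, Esyt1, Fam81a, Slc9a3r2 and Grid1.

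ERα peaks, which the rule did not use, were found at fewer than 30% of the members in every library. An ERα peak overlapped 28.4% and 23.6% of the members in Y541S replicates 1 and 2 (301 and 250 regions), against 19.5% and 15.7% in WT replicates 1 and 2 (207 and 166 regions). Both Y541S libraries were higher than both WT libraries. The mean was 26.0 ± 3.40% in Y541S and 17.6 ± 2.74% in WT (SD, n = 2 each), a difference of 8.40 percentage points, with a two-sided exact permutation p of 0.333, the smallest that 2 against 2 libraries allow. Within replicate 1 the difference was 8.87 points and within replicate 2 it was 7.92 points. These are reported apart because the 2 replicates carry different codes in the deposited names, whose meaning is not given.

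The same direction and a similar size were seen over all PR regions. There an ERα peak was found at 28.2 ± 3.21% of regions in Y541S and 19.6 ± 3.83% in WT (SD, n = 2 each), a difference of 8.59 points (exact permutation p = 0.333). The Y541S ERα lists were longer, with 106926 and 105612 peaks against 72566 and 64488 in WT. With all ERα and PR lists trimmed to an equal 64488 peaks, 1425 regions met the rule. The difference at these was 3.19 points, and the libraries of the 2 genotypes overlapped (exact permutation p = 0.667). Without WT PR replicate 2, where 27517 regions met the rule, the difference was 1.83 points (exact permutation p = 0.667). Without WT PR replicate 1, where 25293 did, it was 4.87 points. These settings changed the set of members along with the lists, so the part of list length in the difference was not tested.

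Constant PR regions carried ERα peaks more than 2 times as often. Their shares were 66.7% and 53.6% in Y541S replicates 1 and 2 and 55.4% and 41.2% in WT. The members were lower in each of the 4 ERα libraries, by 25.5 to 38.3 points, with a mean difference of −32.4 ± 5.79 points (SD, n = 4; two-sided exact sign-flip permutation p = 0.125, the smallest 4 libraries allow). Without Y541S PR replicate 2 the mean difference was −20.6 points, and it was −19.5 points in equally long lists. The classes also differ in width and in PR rank, so they were set side by side within bands of the weaker WT PR rank. In the strongest band that held members, of 20 to 40% and 28 members, the shares were 17.9% and 17.9% in Y541S and 32.1% and 21.4% in WT, so there both Y541S libraries were the lower ones, against 66.5%, 55.0%, 55.6% and 43.3% at constant regions. In the band of 40 to 60%, with 132 members, they were 25.8% and 23.5% in Y541S and 21.2% and 19.7% in WT, against 62.7%, 53.8%, 51.8% and 40.4%. In the band of 60 to 80%, with 330 members, the shares were 32.7% and 25.2% in Y541S and 20.3% and 14.8% in WT, against 63.2%, 55.1%, 50.6% and 39.97% at constant regions. In the weakest band, of 80 to 100% and 570 members, they were 27.02% and 23.0% in Y541S and 18.1% and 14.9% in WT, against 61.7%, 53.9%, 48.2% and 38.8%. With every region taken at a fixed width of 200 bp the difference from constant regions was −30.2 points, a setting chosen after the data were seen.

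The genotype difference was not shown to be particular to the members. The gap between members and constant regions was −34.2 ± 5.88 points in Y541S and −30.7 ± 7.33 points in WT (SD, n = 2 each), a difference of −3.49 points (exact permutation p = 0.667). It changed sign without Y541S ERα replicate 1 (0.666 points) and without WT ERα replicate 2 (1.69 points), and reached −10.1 points without WT PR replicate 2. Intermediate regions had ERα peaks in 32.3 ± 6.15% of cases in Y541S and 24.4 ± 6.56% in WT, and the members were lower than these in each of 4 libraries, by a mean of −6.58 ± 2.73 points (exact sign-flip permutation p = 0.125). That difference was −0.558 points at −log10 p of at least 5 in all lists, where its exact permutation p was 0.625. Without WT PR replicate 1 it was −16.9 points and without WT PR replicate 2 −17.7 points. Within bands of the weaker WT PR rank the order did not hold throughout. In the band of 20 to 40% the members were higher in WT ERα replicates 1 and 2 (32.1% and 21.4%, against 28.9% and 18.4%). They were lower there in Y541S (17.9% and 17.9%, against 30.8% and 18.8%). In the band of 40 to 60% they were higher in WT replicate 2 alone (19.7% against 18.0%). In the bands of 60 to 80% and 80 to 100% they were lower in each library.

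Members and Y541S-only regions were close in ERα share. The Y541S-only regions had an ERα peak in 29.3 ± 2.30% of cases in Y541S and 15.3 ± 2.80% in WT. Members minus Y541S-only regions came to −0.526 ± 3.31 points over the 4 libraries (exact sign-flip permutation p = 0.75), with a range of −4.12 to 2.34 points that bounds it loosely. The members were lower than the Y541S-only regions in the Y541S libraries (−3.34 ± 1.10 points) and higher in the WT libraries (2.29 ± 0.0634 points), a difference of −5.63 points with an exact permutation p of 0.333. The mean over the 4 libraries changed sign in 5 of the other settings and was 14.8 points in equally long lists. It was 6.91 points without Y541S PR replicate 1, 16.04 without Y541S PR replicate 2, −13.6 without WT PR replicate 1 and −26.8 without WT PR replicate 2.

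**Figure D3:**
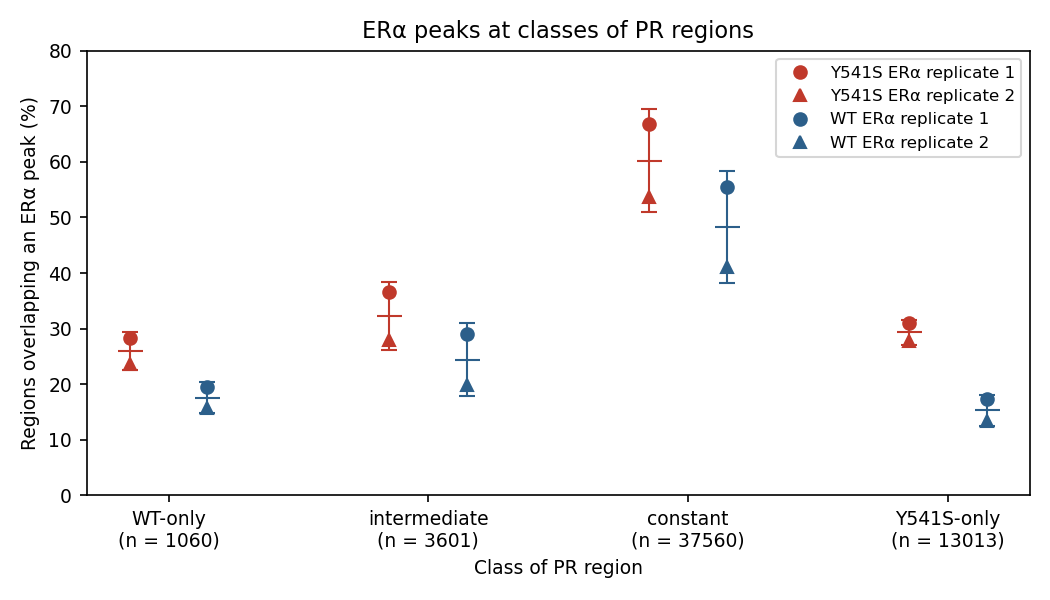
Percent of regions overlapping an ERα peak (y axis) in the 2 Y541S (red) and 2 WT (blue) ERα libraries, for the 4 classes of PR region on the x axis; circles are replicate 1, triangles replicate 2, horizontal bars the mean and error bars the SD over 2 libraries. WT-only regions lie at 28.4 and 23.6% in Y541S and 19.5 and 15.7% in WT, below constant regions at 66.7 and 53.6% and at 55.4 and 41.2%.

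By combination of ERα libraries, members with no ERα peak were about as frequent as among all PR regions, and members with all 4 were less frequent. No ERα peak was found at 583 members (55.0%), against 56.4% of all PR regions, 21.4% of constant, 46.1% of intermediate and 53.0% of Y541S-only regions. Both Y541S libraries had a peak at 154 members (14.5%; background 18.6%) and both WT libraries at 81 (7.64%; background 11.4%). All 4 had one at 51 members (4.81%), against 9.4% of all PR regions, 31.2% of constant, 8.25% of intermediate and 4.38% of Y541S-only regions. A peak in both Y541S and neither WT ERα library was found at 39 members (3.68%; background 3.58%), and the reverse at 5 members (0.472%; background 0.432%). This reverse pattern, at 5 of 1060 members, was thus about as frequent as over all PR regions. It was seen at 0.916% of intermediate, 0.634% of constant and 0.415% of Y541S-only regions. Only the 81 members with a peak in both WT ERα libraries could show it.

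Those 5 members lay within Sel1l3 (chromosome 5, 53124502 to 53125162), within Pllp, a myelin-associated membrane protein, within Ankrd12, 3.22 kb from Cplane2, a factor of cilium assembly, and 283 kb from Efnb2, an ephrin ligand. At Sel1l3 the ERα folds were 6.22 and 3.47 in WT replicates 1 and 2, with PR folds of 3.43 and 5.71. At Cplane2 the WT ERα folds were 4.06 and 4.48, beside WT PR folds of 3.27 and 5.10. At the other 3 the WT ERα folds lay between 2.53 and 3.91.

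Among the 39 with ERα peaks in Y541S alone, in each of its libraries, the best ranked by PR lay closest to Msgn1, Trim33, Tmem144, Rasl2-9, Zfp202, Pdlim2, Kctd21, Frmd8, Vav3 and Smpdl3b. Near Trim33, a ubiquitin ligase of the TIF1 family of transcription cofactors, the Y541S ERα folds were 3.35 and 3.46. Within Vav3, a guanine nucleotide exchange factor, they were 3.69 and 3.88. At the Rasl2-9 start, whose sequence is printed above, they were 2.43 and 5.16, with WT PR folds of 3.27 and 4.15.

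Where an ERα peak was present it was of middling rank. The median rank of ERα peaks at members was 41.5% and 39.8% of the list in Y541S and 46.1% and 45.9% in WT, against 20.4% and 17.4% in Y541S and 27.1% and 21.8% in WT at constant regions. Intermediate regions were close to the members, at 38.1% and 35.7% in Y541S and 42.6% and 41.1% in WT. So were Y541S-only regions, at 45.0% and 37.2% in Y541S and 48.3% and 48.3% in WT. The ERα summit lay within 100 bp of a WT PR summit in 68.1% and 63.2% of such members in Y541S and 70.5% and 65.7% in WT. At constant regions these shares were 73.6% and 66.4% in Y541S and 70.7% and 61.5% in WT.

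A few members departed from this. With the ERα peak in the top 5% of all 4 ERα lists there were 9 members (0.849%), against a background of 0.696% of all PR regions and 2.36% of constant regions. In the top 1% of all 4 lists there were 4 members, 0.377%, against 0.258% of all PR regions. The top 25% of all 4 lists held 16 members (1.51%), below the 3.35% of all PR regions. The 9 were singled out after their values were seen.

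Within Cgnl1, which encodes paracingulin of cell junctions (chromosome 9, 71757372 to 71757693), the ERα folds were 18.8 and 15.2 in Y541S and 16.1 and 16.3 in WT, ranks of 0.123% and 0.178% in Y541S and 0.193% and 0.144% in WT. The WT PR folds there were 3.19 and 3.51, ranks of 40.4% and 47.4%, and the closest Y541S PR peak was 2234 bp away. Within Pcsk6, a proprotein convertase (chromosome 7, 66003268 to 66003731), the ERα folds were 20.4 and 13.7 in Y541S and 17.1 and 10.6 in WT, with PR folds of 3.81 and 6.84 in WT. Within Anxa3, a calcium-dependent phospholipid-binding annexin (chromosome 5, 96827210 to 96827454), they were 17.4 and 14.3 in Y541S and 18.2 and 13.3 in WT, with PR folds of 3.24 and 4.25 in WT.

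Within Dpp6, an auxiliary subunit of potassium channels (chromosome 5, 27652038 to 27652368), the ERα folds were 20.4 and 17.9 in Y541S and 19.98 and 17.7 in WT. The WT PR folds there were 2.45 and 6.70, at ranks of 96.7% and 22.2%, so the 2 WT PR libraries differed, and the closest Y541S PR peak was 7521 bp away. Within Vac14, a scaffold of the PIKfyve lipid kinase complex (chromosome 8, 110663053 to 110663551), the ERα folds were 12.9 and 12.3 in Y541S and 11.1 and 10.5 in WT, with PR folds of 2.38 and 3.75 in WT. The other 4 lay within Uroc1 and outside Gnat3, Syt16 and Zmym4. At all 9 the ERα peak was present in both genotypes while the PR peak was listed in WT alone, which the choice of these members fixes.

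**Figure D4:**
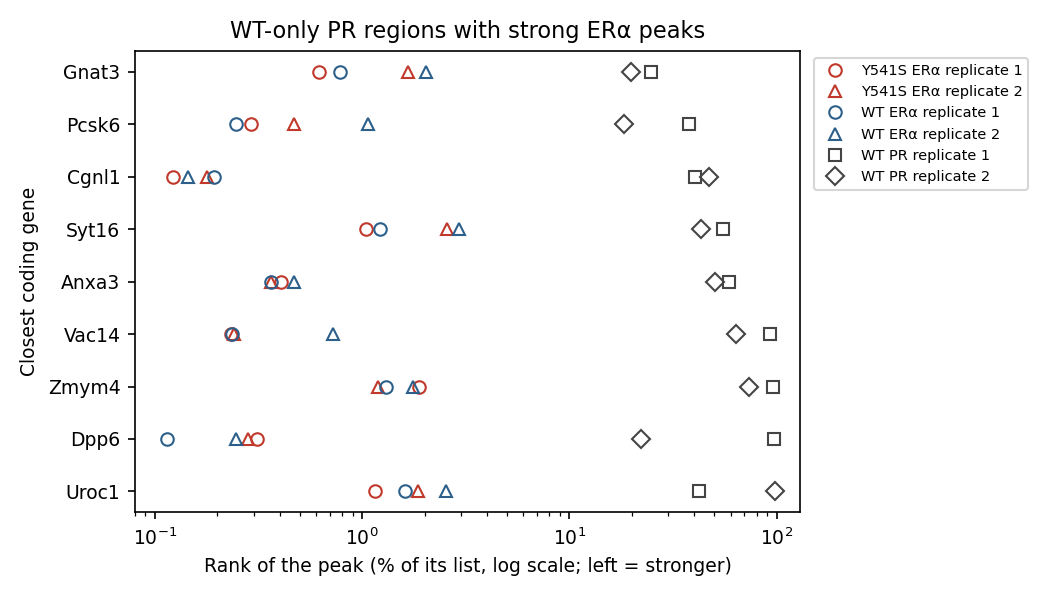
Rank of each peak in percent of its list (x axis, log scale, strongest at left) at the 9 WT-only PR regions with an ERα peak in the top 5% of all 4 ERα lists, named by the closest coding gene; red is Y541S ERα, blue WT ERα and open grey squares and diamonds WT PR replicates 1 and 2. Within Cgnl1 the ERα ranks lie between 0.123 and 0.193% and the PR ranks at 40.4 and 47.4%.

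Members with ERα peaks in all 4 libraries also included one within Bcl2l1, which encodes the survival protein BCL-XL (chromosome 2, 152766453 to 152766905). Its ERα folds were 3.63 and 5.20 in Y541S and 3.01 and 3.41 in WT, with PR folds of 4.87 and 4.48 in WT. Within Cdk12, a kinase of RNA polymerase II, the ERα folds were 4.56 and 4.94 in Y541S and 3.47 and 5.87 in WT. Within Adcy3, an adenylyl cyclase, they were 3.95 and 4.34 in Y541S and 5.23 and 3.66 in WT. The others best ranked among those with all 4 ERα peaks, beside Mical3, Gnat3, Pcsk6, Cgnl1 and Syt16, were within Lrch3 and 89.4 kb from Tcf4, an E protein.

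In position the members were mostly away from gene ends. Within 1 kb of an end of a coding gene lay 82 members (7.74%, Wilson interval 6.28 to 9.50%), inside a gene 570 (53.8%, 50.8 to 56.8%) and outside genes 408 (38.5%, 35.6 to 41.5%). Over all PR regions the shares were 10.1% at gene ends, 49.8% inside genes and 40.1% outside. Constant regions had 18.3% at gene ends and 43.9% inside genes, whereas intermediate regions (7.30% and 51.5%) and Y541S-only regions (7.51% and 47.9%) were close to the members. An annotated promoter window was overlapped by 24 members (2.26%), against 3.58% of intermediate, 16.03% of constant, 4.03% of Y541S-only and 6.02% of all PR regions. The gene-end share of members was 11.8% without Y541S PR replicate 2, 5.20% without WT PR replicate 2, and 19.3% when presence was judged by the peak summit.

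Constant regions with ERα peaks in all 4 libraries were more often at gene ends than those with none, and among the members these shares lay closer together. With an ERα peak in all 4 libraries 4 of 51 members were at gene ends (7.84%, 3.09 to 18.5%), against 44.8% of constant regions. With none, 35 of 583 members were (6.003%, 4.35 to 8.23%), against 3.64% of constant regions. These are counts of regions and carry no test across libraries.

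**Figure D5:**
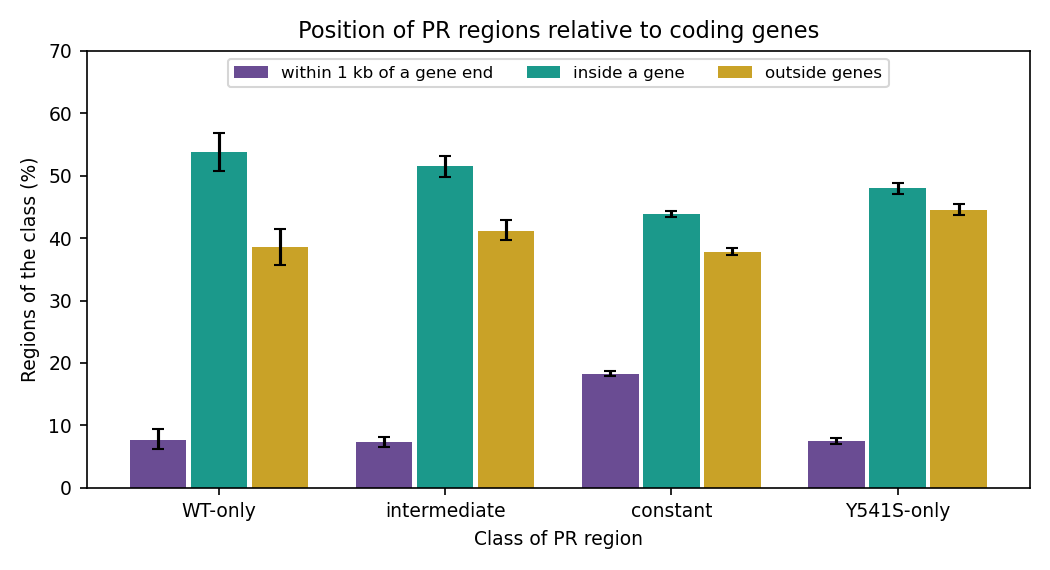
Percent of regions within 1 kb of an end of a coding gene (purple), inside a gene (green) and outside genes (yellow) for the 4 classes of PR region; error bars are 95% Wilson intervals over regions. The gene-end share is 7.74% for WT-only and 18.3% for constant regions.

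At the 5 starts with printed sequence, the Esr2 member spanned chromosome 12 from 76177146 to 76177562, with WT PR summits at −36 and −278 and folds of 3.81 and 3.50. It had an ERα peak in 1 Y541S and 1 WT library, and a Y541S PR peak lay 330 bp away. At Rab34 the summits were at −120 and −89, with folds of 2.97 and 4.23, and a Y541S PR peak lay 85 bp away. At Akt2 they were at −231 and −104, with folds of 2.54 and 3.85, and the closest Y541S PR peak was 1850 bp away. At Ccdc8, where summits stood at −47 and −100, the folds of 2.45 and 3.11 were near the bottom of the lists.

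By chromosome the members made up between 0.426% of PR regions on chromosome 4 and 0.676% on chromosome 11. They were scattered, with a median of 956485 bp between neighbours, and 42 of 1041 neighbouring pairs lay within 50 kb. A member lay within 50 kb of 2083 of 20661 autosomal coding genes (10.1%), against 26.5% for intermediate, 80.7% for constant and 57% for Y541S-only regions. At least 3 members lay within 50 kb of 10 genes, among them Cox4i2, Frmd4a, Id1, Kctd17, Phactr1, Rad51d, Rere, Tmprss6 and Zfp608. Neighbouring genes share members. Id1, an inhibitor of helix-loop-helix factors, and Cox4i2, a subunit of cytochrome c oxidase, were linked to the same stretch of chromosome 2, where 0 Y541S-only and 6 and 8 constant regions were linked to Id1 and to Cox4i2. Rere, which encodes a corepressor, had 3 members beside 28 constant and 7 Y541S-only regions.

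Genes of 12 pathway and cell type lists had a member within 50 kb in 28 of 208 autosomal cases (13.5%), against 10.1% of all coding genes. Other classes were also more frequent near these genes. A constant region lay within 50 kb of 190 of the 208, against 80.7% of all coding genes. A Y541S-only region lay within 50 kb of 156 of the 208, against 57%. The lists were set with earlier results of these data known. None of the 18 hormone-sensing luminal genes, which include Pgr, Foxa1 and Gata3, had a member, against 10.1% of all coding genes. All 18 had a constant region, against 80.7% of all coding genes, and neither difference was tested in a list this short. Of the 23 estrogen response genes, 4 had one, namely Myc, Cxcl12, Ccn5 and Egr3, and none of these members had an ERα peak in any library. The member 48.3 kb from Myc, the proto-oncogene (chromosome 15, 62038549 to 62038850), had PR folds of 3.15 and 2.99 in WT, and a Y541S PR peak lay 326 bp away.

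Of 17 paracrine and branching genes, Igf2, a growth factor, was the only one with a member, 31.1 kb away (chromosome 7, 142619456 to 142619781). Its PR folds were 2.82 and 3.63 in WT, and a Y541S PR peak lay 2195 bp away. Igf2 had no constant and no Y541S-only region within 50 kb, but these classes leave out regions with other patterns of PR peaks. Of 21 progestin and glucocorticoid response genes, 2 had one. Fkbp5, an HSP90 cochaperone and steroid-induced gene, had 1 member 30.2 kb away beside 14 constant regions. Dusp1, a MAP kinase phosphatase, had 1 member 26.8 kb away beside 4 constant regions.

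Of 20 alveolar and luminal progenitor genes 3 had a member (Lalba, Btn1a1 and Aldh1a3). The one at the start of Lalba, the milk protein alpha-lactalbumin (chromosome 15, 98482634 to 98483267), had PR folds of 2.97 and 4.21 in WT, ERα peaks in each Y541S but no WT library, and a Y541S PR peak 9 bp from its edge. Of 20 basal genes 2 had one. That within Oxtr, the oxytocin receptor of myoepithelial cells (chromosome 6, 112489359 to 112489710), had PR folds of 2.82 and 3.07 in WT and no ERα peak. A Y541S PR peak lay 1143 bp away, and Oxtr had 0 constant regions and 1 Y541S-only region linked.

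Of 20 adipocyte genes 5 had a member, namely Plin1, Plin4, Pparg, Cebpa and Lep. The member within Plin1, the coat protein of fat droplets (chromosome 7, 79721440 to 79721720), had PR folds of 3.35 and 3.95 in WT and ERα peaks in all 4 libraries. Near Pparg, the master regulator of fat cell differentiation, the member had folds of 2.95 and 4.30 in WT and ERα peaks in both Y541S libraries alone. The list of 20 nuclear receptor coregulators had genes with a member that included Carm1, Kmt2c, Hdac3, Smarca4 and Ncoa7, of which Carm1 and Smarca4 share 1 region (chromosome 9, 21602023 to 21602460). Ncoa7, an ERα-associated coactivator, had 2, and the one within the gene had ERα peaks in all 4 libraries. Fibroblast genes had 1 of 15 (Fbn1), endothelial genes 2 of 15 (Vwf and Lyve1), immune genes 2 of 14 (Cd3e and Cd4) and muscle and nerve genes 0 of 14. No list was tested for enrichment.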

How the data were processed

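The authors deposited 1 peak list per library, with a score, a fold enrichment (a ratio to the local expectation), a −log10 p-value and a −log10 q for each peak. Per the submitters' processing notes, the build was mm10. Aligner, peak caller and use of input are not given in the sources used here, and read depth is unknown. Peak lists held 64488 to 113695 peaks. PR peaks sharing 1 bp were merged, and an ERα peak counted when it overlapped a region by 1 bp. Shares were compared over libraries with two-sided exact permutation tests, with python 3.11.15, numpy 2.4.6, pandas 2.3.3 and scipy 1.17.1, checked on simulated data. Whether ERα and PR libraries of a replicate share chromatin is not stated, and p-values measure the spread between these libraries only. Genes were 20661 autosomal coding genes of RefSeq GRCm38.p6, taken as spans, without exons or introns, and promoter windows numbered 31396. The 213 list genes all matched, 1 by a synonym. Motif counts in the regions themselves, which were planned, were not run. Named were the genes closest to the 20 best ranked members, to the 10 best ranked of each ERα pattern and to 3 regions on each side of the threshold, genes with 3 or more members, and list genes with a member. The printed promoters and the 9 members with strong ERα peaks were chosen after their values were seen. Members and lists were chosen with earlier results of these data known. Some genes that meet the naming rule are not reported here.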

Additional observations from a re-analysis of the deposited data

How the results depend on the processing

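The number of WT-only PR regions depended on the threshold. It was 606 at −log10 q of at least 1.3, 242 at −log10 p of at least 5, 1619 when summits had to lie in the core of a region, and 1425 in equally long lists. It was 802 when a Y541S PR peak within 500 bp counted as present, and with 1 PR library left out it ranged from 1614 to 27517. The ERα share at members kept a positive Y541S minus WT difference under each other setting that recomputed it, from 3.19 to 7.92 points. With 1 library left out this difference ran from 1.83 to 11.4 points. Its sign held, but the genotypes overlapped in equally long lists, at 36.1% and 30.3% in Y541S and 33.7% and 26.3% in WT (exact permutation p = 0.667). They also overlapped with summits in the core (4.29 points), without Y541S PR replicate 1 and without WT PR replicate 2, each with an exact permutation p of 0.667. Among the 28 members of the strongest PR rank band it was the WT libraries that were higher. Members stayed below constant regions, by −19.5 to −32.9 points under the other settings and −20.6 to −44.5 points with 1 library left out, and below intermediate regions, by −0.558 to −7.42 points and −5.59 to −17.7 points. That comparison could not be made without a Y541S PR library. The difference between genotypes in the gap to constant regions ranged from −10.1 to 1.69 points with 1 library left out, and was 0.666 points without Y541S ERα replicate 1. Members minus Y541S-only regions changed sign to 0.973 points at the q threshold, 2.00 at the p threshold, 14.8 in equally long lists, 1.53 with summits in the core and 0.226 with the 500 bp rule. With 1 library left out it ranged from −26.8 to 16.04 points, with 6.91 without Y541S PR replicate 1, 0.154 without Y541S ERα replicate 1 and 0.672 without Y541S ERα replicate 2. The gene-end share of members was 10.5% in equally long lists, 19.3% with summits in the core, 4.61% with the 500 bp rule and 5.20 to 11.8% with 1 PR library left out. The cause of these changes was not tested. With the replicate number as a block the differences of 8.40 and −3.49 points each had an exact permutation p of 0.5, the smallest it allows, and nothing states that equal numbers pair the libraries. Read depth is unknown and limits which weak peaks were listed.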
